A study of Mus musculus with 16 samples.

Results

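Spry4 knockout spermatogonia were compared with wild-type spermatogonia from mice that had all received a MEK inhibitor, which gave 8 of the 16 libraries in the series. Undifferentiated spermatogonia, the mitotic germ cells that include the stem cells of the testis, had been sorted by flow cytometry from adult mice on day 10 after busulfan, an alkylating drug toxic to germ cells, given at 10 mg/kg. From day 3 the mice were injected daily for 7 days with PD0325901 at 2.5 mg/kg, an inhibitor of MEK1 and MEK2, or with vehicle containing 10% DMSO. The 4 groups were KO_PD (labelled Spry4 G-KO, inhibitor), WT_PD (labelled WT, inhibitor), KO_vehicle (Spry4 G-KO, vehicle) and WT_vehicle (WT, vehicle), with 4 libraries each. The libraries of the first pair are those compared here, and the vehicle pair, which shares no library with it, served as a second comparison of the genotypes. All groups had therefore received busulfan. The column names carry GCRT_Spry4KO for the knockout and Spry4ff for the wild type. Only the knockout names hold GCRT, and loss of Spry4 cannot be told apart from whatever GCRT stands for. The part of Spry4 removed, the driver of the deletion, the sort markers and the meaning of PD8 in the column names are not given in the labels. The description covers the 12907 of 16383 listed genes that reached 1 FPKM (fragments per kilobase, scaled for library size, the deposited unit) in at least 4 of the 16 libraries.

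Spermatogonial stem cells are maintained by GDNF, a growth factor from somatic cells of the testis that binds GFRA1 and the receptor tyrosine kinase RET, and by FGFs. Both feed into the RAS, RAF, MEK and ERK kinase cascade, and ERK drives transcription of immediate early genes, of the PEA3 factors Etv4 and Etv5 and of its own inhibitors. SPRY4 belongs to the Sprouty proteins, which are induced by ERK and restrain receptor tyrosine kinase signalling upstream of MEK. The comparison asks which transcripts of the surviving cells differ between the 2 genotypes when both received the MEK inhibitor. How far the inhibitor lowered ERK output in these cells was not tested. Mean levels in WT_PD and WT_vehicle were 22.9 and 25.5 FPKM for Etv4, and 42.1 and 47.1 FPKM for Etv5. They were 21.5 and 22.1 FPKM for Spry4, 103 and 156 FPKM for the immediate early gene Egr1, and 47.0 and 37.9 FPKM for Spry2.

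The divisors behind the FPKM values, an estimate of library size recovered from the low values, were 24084400 to 36582600 in KO_PD and 27946100 to 36434900 in WT_PD. Each library listed 12257 to 12600 genes at 1 FPKM or more in KO_PD and 12276 to 12436 in WT_PD. The defining transcript of undifferentiated spermatogonia, Zbtb16, lay at 122, 119, 122 and 112 FPKM in KO_PD and at 125, 124, 85.6 and 108 FPKM in WT_PD, so it was abundant in all 8 libraries. Markers of peritubular myoid cells, the smooth-muscle-like cells around the tubules, were abundant and uneven: Acta2 had 1803, 1345, 1800 and 3937 FPKM in KO_PD against 571, 367, 5095 and 3035 FPKM in WT_PD. WT_PD thus held both extremes of the 8 libraries, with replicates 1 and 2 low and replicates 3 and 4 high. The first principal component of the tested genes, with 52.7% of the variance over all 16 libraries, gave WT_PD scores of -35.4, -37.1, 48.9 and 26.5 and KO_PD scores of 0.2, -17.5, 4.0 and 33.4. The library numbers in the column names form a lower and a higher run of 8, and replicates 1 and 2 of every group fall in the lower run (set 1) and replicates 3 and 4 in the higher (set 2). The split of WT_PD by Acta2 therefore coincides with this numbering, whose meaning is not given in the labels. In the vehicle pair KO_vehicle 3 stood apart, with the lowest score of all 16 on the same component, -50.7, and with 739 FPKM of the spermatid transcript Prm1, against 0.853 to 16.5 FPKM in the other KO_vehicle libraries and 0.75 to 19.0 FPKM in WT_vehicle. Values are given within each set, and without WT_PD 1 and 2, where they change a result. In sorted bulk samples, fewer cells of a type and less RNA per cell cannot be told apart. The labels do not state that replicates came from separate animals, so p-values measure only the spread between these libraries.

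Spry4 itself (ENSMUSG00000024427, chromosome 18, 38586247 to 38601415, minus strand, GRCm38) was lower in the knockout but still present. Its level was 13.0, 8.23, 11.0 and 19.3 FPKM in KO_PD, against 15.9, 19.6, 27.4 and 23.0 FPKM in WT_PD. Only KO_PD 4 reached into the wild-type range. The means were 12.9 ± 4.71 FPKM in KO_PD and 21.5 ± 4.89 FPKM in WT_PD (SD, n = 4 each), which put the knockout at 60% of wild type. The difference in log2(FPKM + 0.5) was -0.75, with a 95% interval of -1.27 to -0.24 and a two-sided exact permutation p of 0.0571, where 4 against 4 libraries allow no p under 0.0286. Under vehicle the same difference was -1.01, from 12, 10.1, 7.28 and 14.7 FPKM in KO_vehicle and 22.6, 23.8, 21.9 and 19.9 FPKM in WT_vehicle, without overlap, and without KO_vehicle 3 it was -0.84. Under inhibitor the difference was -0.74 within set 1 and -0.76 within set 2. FPKM summed over the whole gene does not show whether the remaining reads come from the part that was removed.

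**Figure D1:**
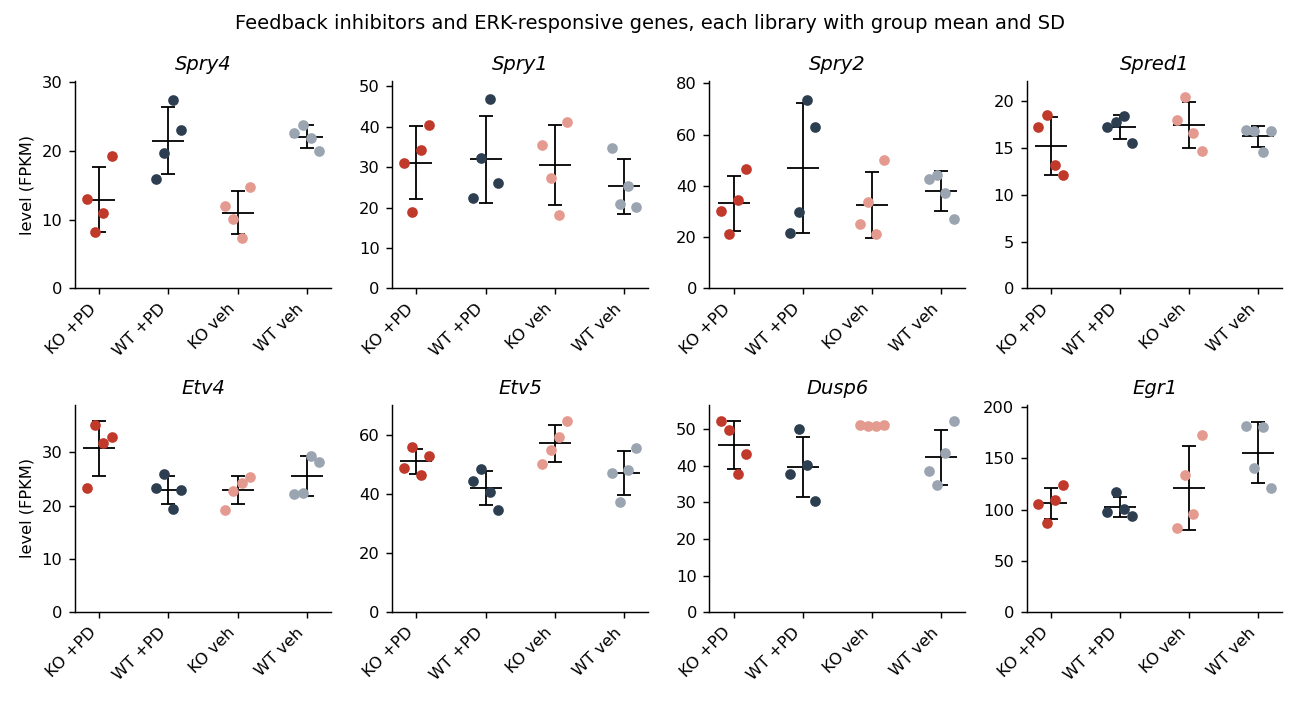
Levels in FPKM (y axis, linear from 0) of 4 feedback inhibitors and 4 ERK-responsive genes in every library of the 4 groups, with horizontal bars for the mean and SD of 4 libraries. Spry4 was 12.9 ± 4.71 FPKM in KO_PD and 21.5 ± 4.89 FPKM in WT_PD, while Etv4 was 30.8 ± 5.14 FPKM in KO_PD and 22.9 ± 2.68 FPKM in WT_PD.

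No gene passed the test of knockout against wild type under inhibitor. With limma and Benjamini-Hochberg adjustment, 0 of 12907 genes (0%) had an adjusted p under 0.05, and the smallest adjusted p was 0.988. At an unadjusted p under 0.05 there were 605 genes (4.69%), 207 higher in KO_PD (1.6%) and 398 lower (3.08%), where 5% of the tests would be 645 genes. The same model run on read counts recovered from the FPKM values, with limma-voom over 12467 genes, also called 0 genes and gave 668 at an unadjusted p under 0.05. All 4 KO_PD libraries lay above all 4 WT_PD libraries for 112 genes (0.868%) and below them for 182 genes (1.41%), 294 in all (2.28%). That excess of lower genes depended on scale: 107 genes were higher and 100 lower after each library was scaled to its median, and 108 higher and 116 lower after quantile normalization. The log2 difference was above 0 for 46.2% of genes as deposited, 52.7% after median scaling and 50.6% after quantile normalization. The median 95% interval reached 0.31 to either side of the estimate, and the median absolute log2 difference was 0.1. A gene is described below by its level in every library, and a list of related genes by how many members lay higher or lower beside the 46.2% of all genes that lay higher.

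The other feedback inhibitors lay on both sides of their wild-type levels. Of the 6 tested Sprouty and Spred genes, Spry4 included, 2 were higher and 4 lower in KO_PD, with a median log2 difference of -0.11. Spry2, which like Spry4 restrains receptor tyrosine kinase signalling, had 30.2, 21.1, 34.5 and 46.7 FPKM in KO_PD against 21.6, 29.8, 73.6 and 63.1 FPKM in WT_PD (log2 difference -0.38, SE 0.37). Its spread in WT_PD followed the order of Acta2 apart from an exchange of the lowest pair. Spry1, another Sprouty gene, differed by -0.03 (SE 0.29), with a 95% interval of -0.66 to 0.60. Spred1, a membrane-bound inhibitor that recruits neurofibromin to RAS, had 17.3, 18.5, 13.2 and 12.1 FPKM in KO_PD and 17.3, 17.8, 18.4 and 15.5 FPKM in WT_PD, a log2 difference of -0.19 (SE 0.13). Spred2, of the same family, had a slightly higher mean in KO_PD, by 0.08 (SE 0.08).

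Genes of the receptors and the kinase cascade lay on both sides of wild type. Ret, the signalling receptor for GDNF, had 67.0, 80.0, 72.2 and 74.3 FPKM in KO_PD and 70.4, 74.2, 54.2 and 54.3 FPKM in WT_PD (log2 difference 0.22, SE 0.13). Gfra1, its GDNF-binding partner, lay the other way, at 36.3, 42.3, 29.8 and 35.6 FPKM in KO_PD and 49.3, 46.7, 36.8 and 34.1 FPKM in WT_PD (log2 difference -0.20, SE 0.16). In both genes the groups overlapped. Among all 10 tested GDNF and FGF receptors and adaptors, 7 were higher and 3 lower, with a median of 0.19 that became -0.03 without WT_PD 1 and 2. The GDNF-family co-receptors Gfra4 and Gfra2 had the largest moderated statistics of the list, with log2 differences of 0.34 (SE 0.16) and -0.49 (SE 0.23). Of 23 genes of the RAS, RAF, MEK and ERK core, 7 were higher and 16 lower, with a median of -0.06. The members furthest from 0 for their error were Frs2, an FGF receptor adaptor, at -0.14 (SE 0.06), Rasa1, a RAS GTPase-activating protein, at -0.30 (SE 0.15), and Braf, a RAF kinase, at -0.25 (SE 0.13). Within set 1 the core list's median was 0.03 and within set 2 it was -0.16.

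Among the transcriptional outputs of ERK, the PEA3 factors Etv4 and Etv5 and the phosphatases Dusp6 and Dusp7 had higher means in the knockout, whereas the PEA3 factor Etv1 had a lower one. Etv1, added after its values were seen, had 1.67, 0.696, 0.946 and 1.33 FPKM in KO_PD and 0.914, 1.46, 3.69 and 2.05 FPKM in WT_PD (log2 difference -0.53, SE 0.32). Etv4 had 23.3, 35.1, 31.7 and 32.9 FPKM in KO_PD against 23.4, 25.9, 19.4 and 23.0 FPKM in WT_PD, so 3 knockout libraries lay above every wild-type one (log2 difference 0.41, SE 0.14, limma adjusted p = 0.988). Etv5, a PEA3 factor required for maintenance of the stem cells in mouse, had 48.9, 56.2, 46.4 and 53.1 FPKM in KO_PD and 44.6, 48.5, 40.8 and 34.7 FPKM in WT_PD (0.28, SE 0.13). Dusp7, an ERK phosphatase, had 17.0, 20.7, 20 and 19.6 FPKM in KO_PD and 16.1, 17.2, 16.2 and 13.8 FPKM in WT_PD (0.28, SE 0.11). Dusp6, another ERK phosphatase, had 52.4, 49.7, 37.7 and 43.2 FPKM in KO_PD and 37.7, 50.1, 40.3 and 30.3 FPKM in WT_PD (0.22, SE 0.15). The groups overlapped in all 5 genes. Over the 23 tested genes of the ERK output list, 15 were higher and 8 lower, with a median of 0.06, and no member had non-overlapping libraries. This median did not keep its side of 0: it was 0.10 in set 1, -0.10 in set 2 and -0.16 without WT_PD 1 and 2.

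Immediate early genes, which answer growth factor signals within minutes and also answer tissue handling, ran with the library sets. Of 24 members, 16 were higher and 8 lower, with a median of 0.04. In set 1, 22 were higher with a median of 0.43, and in set 2, 5 were higher with a median of -0.32. The mean log2 level of the list was 6.0, 5.8, 6.24 and 6.53 in KO_PD and 5.49, 5.5, 6.81 and 6.55 in WT_PD, again lowest in WT_PD 1 and 2, as Acta2 was. The part of the peritubular markers in this pattern was not tested beyond a model with their mean as a term, in which the list median was -0.22. Egr1, the most studied member, was nearly level at 105, 87.2, 109 and 124 FPKM in KO_PD and 97.9, 117, 101 and 94.1 FPKM in WT_PD (log2 difference 0.05, SE 0.20). Egr2 departed from the list, with 32.2, 43.2, 35.3 and 35.1 FPKM in KO_PD above 29.1, 28.8, 23.9 and 19.9 FPKM in WT_PD in every library (0.52, SE 0.17, limma adjusted p = 0.988). Arc, another member, differed by 0.39 (SE 0.17), with overlapping libraries.

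Genes of the stem cell state and of the GDNF response lay mostly above wild type. Of 19 tested stem cell genes, 15 were higher in KO_PD and 4 lower, with a median log2 difference of 0.25 beside -0.014 over all genes. The mean log2 level of the list was 4.26, 4.47, 4.22 and 4.38 in KO_PD and 4.19, 4.12, 4.13 and 3.97 in WT_PD, so the groups did not overlap. Among the 39 lists with a tested member no other had means without overlap, beside 2.28% of single genes. The separation of the list means was not tested. Of 14 GDNF-responsive genes, 13 were higher and 1 lower, with a median of 0.27, and list means of 3.72, 3.89, 3.63 and 3.75 in KO_PD and 3.58, 3.67, 3.33 and 3.25 in WT_PD, with an overlap of KO_PD 3 and WT_PD 2. Both lists kept a positive median under every alternative processing tried, from 0.21 to 0.43 for the stem cell list and 0.15 to 0.43 for the GDNF-responsive list. They are not separate evidence, since 9 genes stand in both (Bcl6b, Eomes, Etv5, Id4, Lhx1, Nanos2, Ret, T and Tspan8). Those 9 were all higher, with a median of 0.28. The 10 genes of the stem cell list alone had 6 higher and 4 lower, with a median of 0.18, and the 5 of the GDNF list alone had 4 higher and 1 lower, with a median of 0.20. No member passed the adjusted threshold, and these lists were known from earlier results of the same libraries to lie higher.

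Lhx1, a LIM homeobox factor induced by GDNF in cultured mouse spermatogonia, was among the members furthest apart. It had 8.91, 10.6, 6.5 and 8.6 FPKM in KO_PD against 5.28, 6.17, 4.95 and 3.95 FPKM in WT_PD, without overlap (log2 difference 0.71, SE 0.24, limma adjusted p = 0.988). Bcl6b, a transcriptional repressor induced by GDNF, had 22, 22.6, 17.9 and 17.2 FPKM in KO_PD and 14.9, 19.7, 12.8 and 14 FPKM in WT_PD (0.38, SE 0.15). Over all 8 libraries the groups of Bcl6b overlapped. Within each library set both knockout libraries of Bcl6b lay above both wild-type ones, which for Lhx1 follows from its lack of overlap. Such a separation was common, found for 2971 of 12907 genes in set 1 and for 2352 in set 2. Plvap, known from endothelium and also reported in a stem cell subset of mouse spermatogonia, had 13.4, 19.4, 12.2 and 23.3 FPKM in KO_PD and 14, 9.8, 9.64 and 6.84 FPKM in WT_PD (0.73, SE 0.31). Pdx1, a homeobox factor in the same subset, had 3.29, 4.48, 3.67 and 4.39 FPKM in KO_PD and 3.6, 2.81, 3.05 and 1.92 FPKM in WT_PD (0.43, SE 0.17). Nanos2, an RNA-binding protein that holds the stem cell state, had 4.49, 5.36, 5.03 and 5.68 FPKM in KO_PD and 5.99, 4.29, 3.49 and 4.26 FPKM in WT_PD, a log2 difference of 0.19 (SE 0.16) whose highest value was a wild-type library. Id4, a stem cell marker outside the naming rule and added after its values were seen, was nearly level at 0.09 (SE 0.08). The 4 members below wild type were Ddit4, Bmi1, Gfra1 and Zfp36l1, from -0.31 to -0.20.

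**Figure D2:**
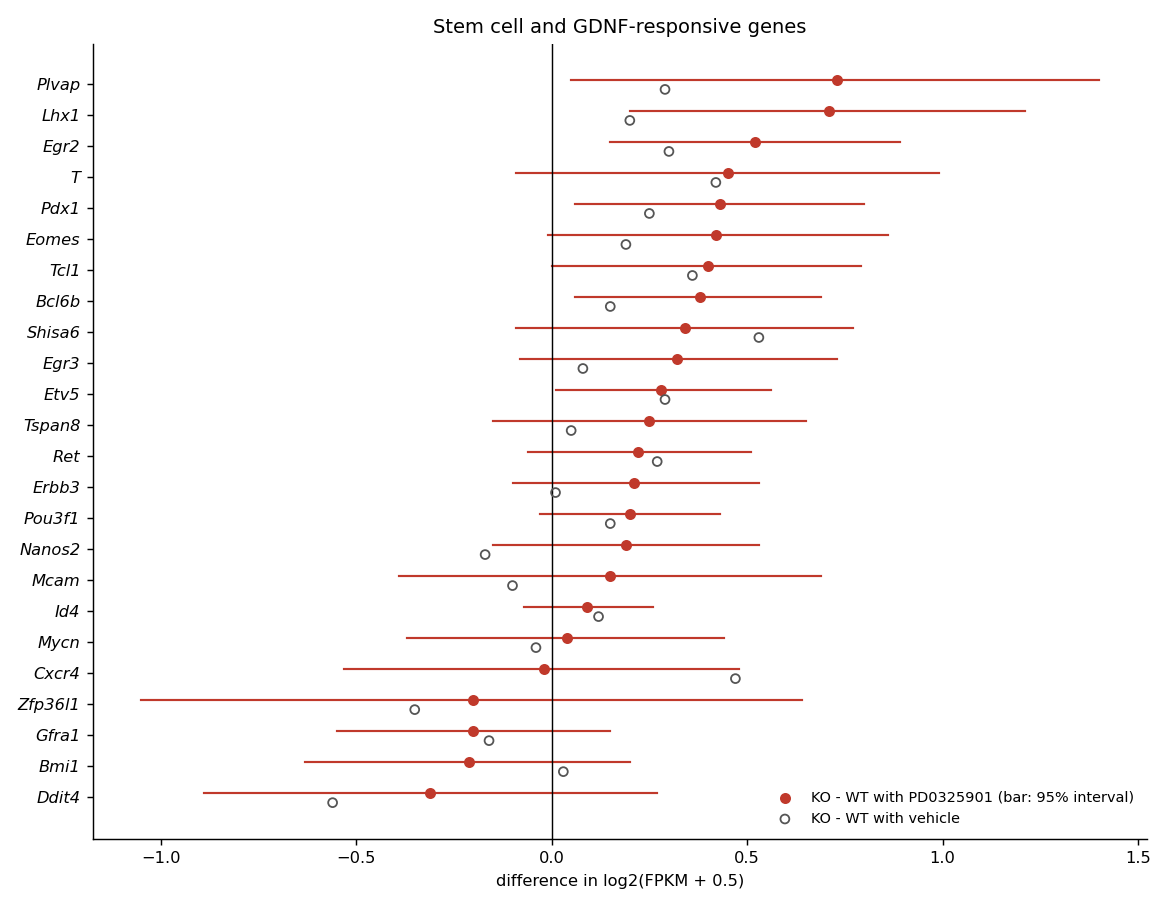
Difference in log2(FPKM + 0.5) (x axis) of the 24 tested genes of the stem cell and GDNF-responsive lists, one gene a row, sorted by the difference under inhibitor: filled points give KO_PD minus WT_PD with 95% intervals, open circles give KO_vehicle minus WT_vehicle. Most points under inhibitor lie right of 0, with Plvap at 0.73 and Lhx1 at 0.71, and few intervals leave 0 out.

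With all libraries, lists of progenitor, differentiating and meiotic genes had medians within 0.1 of 0. Neurog3, a factor of progenitors about to leave the stem cell state, had 8.19, 4.51, 6.14 and 5.87 FPKM in KO_PD and 7.03, 7.09, 3.43 and 3.83 FPKM in WT_PD (log2 difference 0.23, SE 0.28). The progenitor list had 3 of 10 members higher and a median of -0.07. Its median was -0.26 in set 1, with 2 higher, and 0.14 in set 2, with 7 higher. Kit, the receptor whose appearance marks differentiation, was low in both groups, at 2.49, 2.42, 3.19 and 1.85 FPKM in KO_PD and 1.97, 2.36, 2.34 and 4.50 FPKM in WT_PD (-0.10, SE 0.23). Of 12 genes of differentiating spermatogonia, 7 were higher, with a median of 0.02, and Nefm, a neurofilament gene, was the only one with non-overlapping libraries, at 12, 16.4, 13.3 and 17.1 FPKM in KO_PD and 10.2, 11.2, 11.0 and 10.3 FPKM in WT_PD. The 18 genes shared by undifferentiated spermatogonia had 10 higher and a median of 0.02, and the 21 meiotic genes had 11 higher and a median of 0.00. In set 1 the shared list had 5 higher and a median of -0.14, and in set 2 it had 15 higher and 0.15. From set 1 to set 2 the meiotic median went from -0.09 to 0.11 and the differentiating median from 0.14 to -0.03. Of 12 genes of retinoic acid response and metabolism, 7 were higher with a median of 0.09. Aldh1a1, which makes retinoic acid, lay lower without overlap, at 3.27, 1.21, 2.72 and 3.30 FPKM in KO_PD and 3.90, 7.24, 5.95 and 3.92 FPKM in WT_PD (-0.91, SE 0.34), while under vehicle it differed by 0.58 in the other direction, or by 0.89 without KO_vehicle 3.

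Transcripts of spermatids, a later haploid stage that the sort should not hold, varied more between libraries than between groups. Prm1, a protamine, had 32.5, 5.96, 4.02 and 9.33 FPKM in KO_PD and 0.313, 25.8, 9.66 and 1.25 FPKM in WT_PD. The 14 tested spermatid genes had a median of 0.38 with 12 higher, and summed to 32.9 to 156 FPKM in KO_PD and 11.6 to 129 FPKM in WT_PD. Their part in the other results was not tested beyond a model that held the spermatid and peritubular means as terms.

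Cell cycle, damage response and repair lists had medians near 0 with all libraries. Mki67, a proliferation marker, had 32.5, 44.5, 38.2 and 32.1 FPKM in KO_PD and 34.2, 36.8, 27.8 and 36.9 FPKM in WT_PD (log2 difference 0.11, SE 0.15). Of 20 mitosis genes, 15 were higher with a median of 0.05, and of 24 replication genes, 15 were higher with a median of 0.02. In set 1, 8 mitosis and 10 replication genes were higher, with medians of -0.04 and -0.01. In set 2, 15 and 18 were higher, with medians of 0.09 and 0.11. Ccnd1, cyclin D1, which drives entry into the cycle downstream of ERK, differed by -0.11 (SE 0.21). Rb1, the retinoblastoma repressor of E2F factors, had 25.3, 23.6, 18.2 and 16.2 FPKM in KO_PD and 30.9, 28.4, 25.1 and 25.4 FPKM in WT_PD, with a knockout library just inside the wild-type range (-0.41, SE 0.15). Cdkn1a, the p53-responsive cell cycle inhibitor p21, had 8.86, 11.4, 13.8 and 18.3 FPKM in KO_PD and 6.74, 5.34, 23.0 and 27.2 FPKM in WT_PD. Its wild-type values were split by library set. The log2 difference was 0.03, with an SE of 0.48 that rests on the spread within all 4 groups. The p53 targets had 12 of 23 members higher with a median of 0.03, which was 0.18 in set 1 and -0.36 in set 2. The Fanconi and homologous recombination genes, which repair the crosslinks that busulfan makes, had 9 of 23 higher and a median of -0.02. Their median was -0.09 in set 1 and 0.06 in set 2.

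Several metabolic and protein synthesis lists lay slightly to one side of wild type. All 24 tested genes of cholesterol and fatty acid synthesis were lower in KO_PD as deposited, with a median log2 difference of -0.13, where 53.8% of all genes were lower. After median or quantile scaling 2 of the 24 were higher, and the median was -0.10 or -0.11. The list means were 3.39, 3.56, 3.44 and 3.33 in KO_PD and 3.63, 3.53, 3.55 and 3.58 in WT_PD, with an overlap of KO_PD 2. Cyp51, lanosterol demethylase, had 6.57, 8.17, 6.49 and 6.63 FPKM in KO_PD and 8.89, 7.73, 9.89 and 11.7 FPKM in WT_PD (-0.42, SE 0.15). Sc5d and Msmo1, which act further along the same route, differed by -0.30 (SE 0.11) and -0.28 (SE 0.11). Lss, lanosterol synthase, was the member without overlap, at 6.35, 6.28, 6.38 and 6.26 FPKM in KO_PD and 7.33, 6.64, 7.05 and 7.23 FPKM in WT_PD.

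All 24 cytosolic ribosomal protein genes were higher in KO_PD, with a median of 0.17 and a range of 0.03 to 0.28, beside 46.2% higher over all genes. The list means were 7.18, 7.41, 7.38 and 7.69 in KO_PD and 7.19, 7.12, 7.38 and 7.36 in WT_PD, with KO_PD 4 the highest and WT_PD 2 the lowest. Without KO_PD 4 the median was 0.06 with 21 higher, and without WT_PD 1 and 2 it was 0.05 with 17 higher. Ribosomal protein genes have many near-identical pseudogene copies, so reads may be shared between them and the levels are uncertain. Under vehicle 5 of the 24 were higher, with a median of -0.05. The heat shock and unfolded protein list had 4 of 20 higher and a median of -0.10, and the interferon list had 2 of 14 higher and a median of -0.15. Both medians stayed below 0 under every alternative, from -0.16 to -0.04 for heat shock and unfolded protein genes and from -0.38 to -0.07 for interferon genes. Phgdh, the first enzyme of serine synthesis, lay among the ATF4 targets at 24, 34.7, 32.0 and 29.3 FPKM in KO_PD and 26.5, 21.6, 20.5 and 24.9 FPKM in WT_PD (0.35, SE 0.11), while that list as a whole had a median of 0.01.

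**Figure D3:**
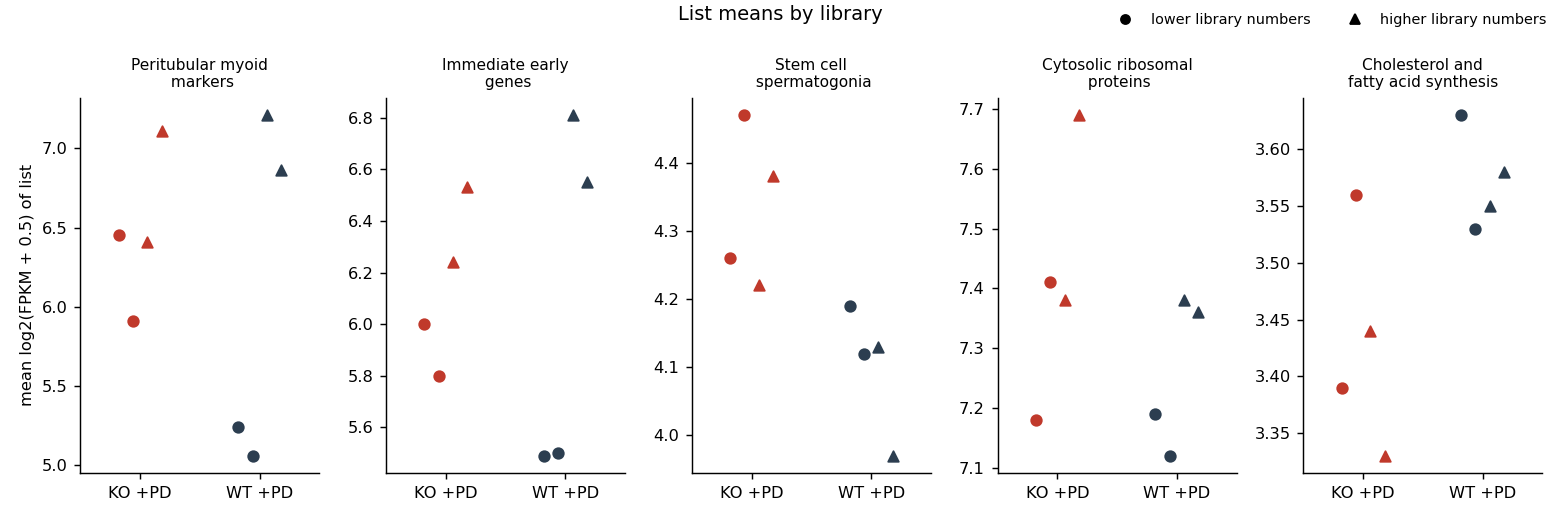
Mean log2(FPKM + 0.5) of 5 gene lists (y axis, a separate range in each panel) in each KO_PD and WT_PD library, with circles for library-number set 1 and triangles for set 2. Peritubular and immediate early means in WT_PD are split by set, whereas the stem cell means of KO_PD, 4.22 to 4.47, all lie above those of WT_PD, 3.97 to 4.19. Of single genes, 2.28% had libraries without overlap.

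Of the 40 gene lists, 39 had a tested member, and their medians ran from -0.15 to 0.48, with 28 of them within 0.1 of 0. Across the 24 alternatives 6 lists kept their direction: stem cell, GDNF-responsive and ribosomal protein genes on the higher side, and cholesterol, heat shock and interferon genes on the lower side. The highest median, 0.48, belonged to the peritubular markers, with 9 of 11 higher. That list's median was 1.40 in set 1 and -0.42 in set 2, and its summed level was 3352 to 9788 FPKM in KO_PD and 1193 to 11943 FPKM in WT_PD. Single markers of other somatic cell types were low beside Acta2. The leukocyte marker Ptprc had 0.0074 to 0.014 FPKM in KO_PD and 0.002 to 0.0186 FPKM in WT_PD, and the Sertoli cell factor Sox9 had 0.403 to 0.622 FPKM in KO_PD and 0.3 to 0.605 FPKM in WT_PD. The Leydig cell gene Star had 0.73 to 0.848 FPKM in KO_PD and 0.573 to 0.956 FPKM in WT_PD, and the endothelial marker Pecam1 had 0.575 to 0.78 FPKM in KO_PD and 0.687 to 0.913 FPKM in WT_PD. Cdh5, another endothelial marker, had 1.86 to 2.54 FPKM in KO_PD and 1.71 to 3.2 FPKM in WT_PD. Summed Sertoli markers came to 31.2 to 37.8 FPKM in KO_PD and 31.6 to 40.9 FPKM in WT_PD. The 3 tested Leydig markers, without Star, summed to 15 to 27 FPKM in KO_PD and 8.77 to 38 FPKM in WT_PD. Endothelial markers summed to 30.6 to 71.6 FPKM in KO_PD and 27.5 to 88.9 FPKM in WT_PD, and leukocyte markers to 5.54 to 7.76 FPKM in KO_PD and 4.61 to 11.8 FPKM in WT_PD. Cd68, a lysosomal protein abundant in macrophages, differed by 0.52 (SE 0.17) while Adgre1, the macrophage marker F4/80, was at 0 to 0.102 FPKM in KO_PD and 0 to 0.0429 FPKM in WT_PD.

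**Figure D4:**
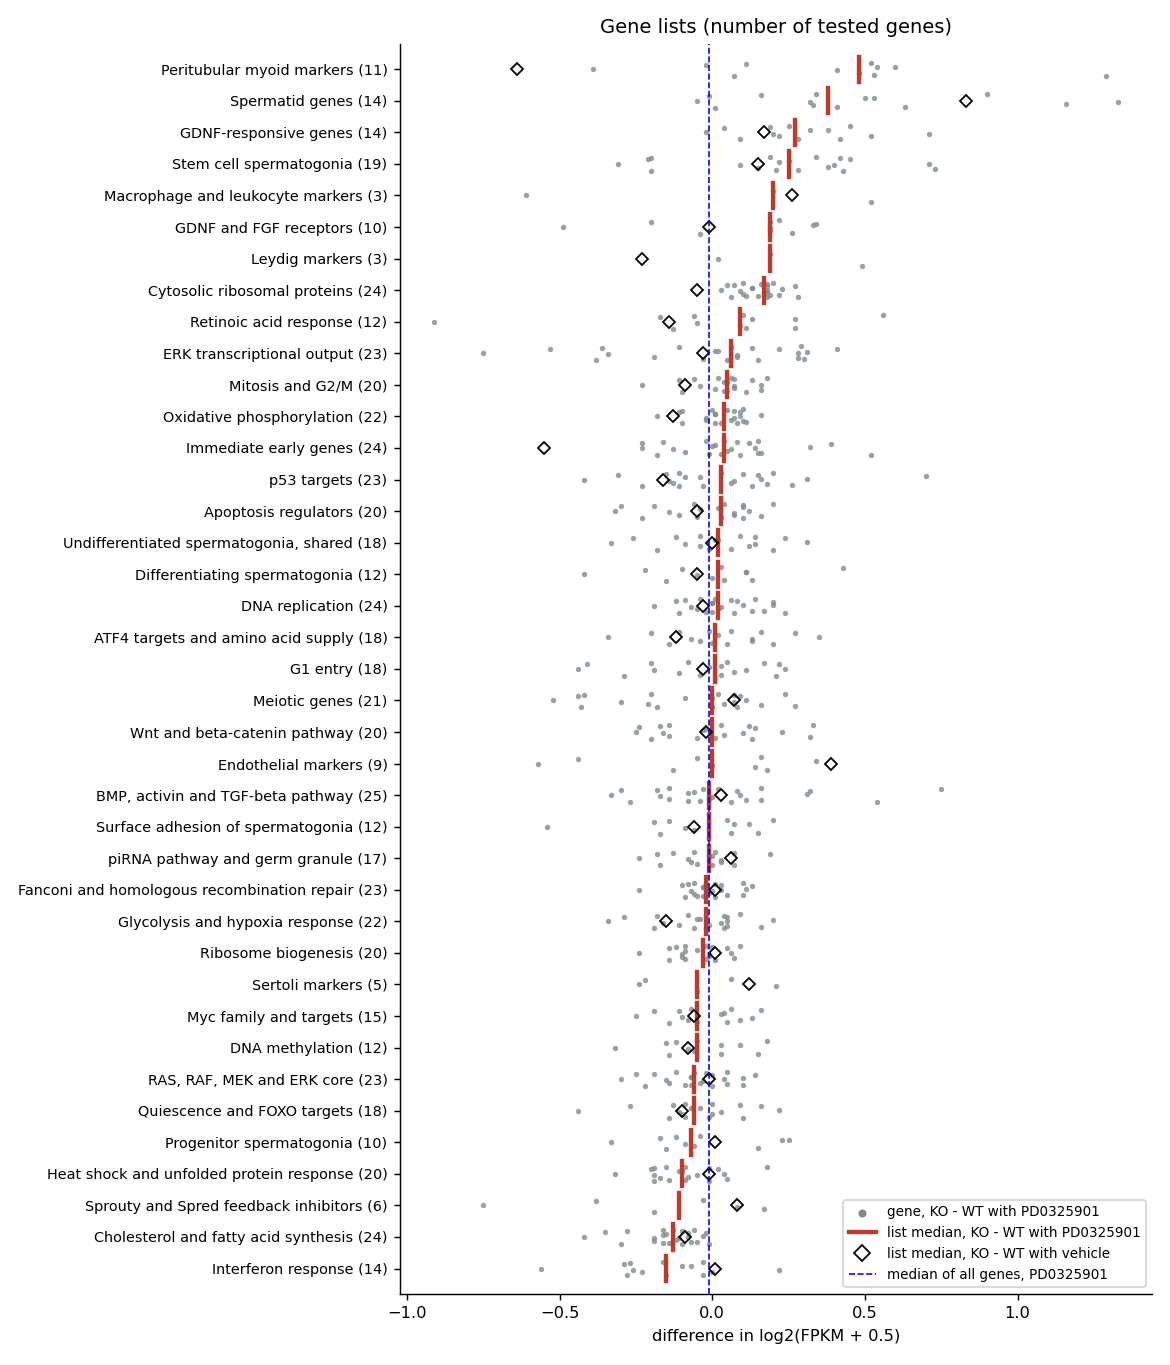
Difference in log2(FPKM + 0.5) (x axis) for each of 39 gene lists (rows, number of tested genes in brackets): grey dots are genes and red ticks list medians for KO_PD minus WT_PD, diamonds are list medians for KO_vehicle minus WT_vehicle, and the dashed line is the median of all genes under inhibitor. Red ticks run from -0.15 for interferon genes to 0.48 for peritubular markers, most of them near the dashed line.

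With no gene past the threshold, the genes furthest apart were taken by rule: the 10 higher and 10 lower genes with the smallest limma p among those whose libraries did not overlap and whose mean was at least 2 FPKM, of 90 higher and 162 lower genes that met the conditions. Their separation follows from that rule and their values are a description. Among the 10 higher genes were 3 transcription factors. Nfatc2, a transcription factor activated by calcineurin, had 4.73, 5.25, 5.88 and 5.56 FPKM in KO_PD and 4.11, 4.06, 3.42 and 3.76 FPKM in WT_PD, a level of 140% of wild type with the smallest p of all genes (log2 difference 0.43, SE 0.10, limma adjusted p = 0.988). Sp6, a zinc-finger factor of the Sp family, had 7.23, 9.97, 7.56 and 9.01 FPKM in KO_PD and 4.68, 4.84, 5.38 and 5.25 FPKM in WT_PD, 168% of wild type. Foxo6, a forkhead factor, had 17.2, 22.5, 24.2 and 26 FPKM in KO_PD and 14.2, 14.3, 15.0 and 15.3 FPKM in WT_PD, 153% of wild type. All 3 were expressed at modest levels next to Etv5 or Zbtb16 on the same per-length scale.

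The other 7 higher genes have diverse functions. Dact2, which binds dishevelled and restrains Wnt and Nodal signals, had 6.61, 6.80, 6.57 and 7.67 FPKM in KO_PD and 5.38, 5.65, 4.39 and 4.36 FPKM in WT_PD. Cracr2b, a regulator of store-operated calcium channels, had 4.76, 3.80, 4.61 and 5.12 FPKM in KO_PD and 2.74, 3.14, 3.47 and 3.25 FPKM in WT_PD. Smoc1, a secreted matricellular protein, had 6.59, 7.56, 6.62 and 7.09 FPKM in KO_PD and 6.10, 4.70, 4.38 and 5.10 FPKM in WT_PD. For Smoc1 the groups came closest in KO_PD 1 and WT_PD 1. Crygs, a crystallin known from the lens, and Tmc8, a transmembrane channel-like protein, stood at 155% and 160% of wild type. Tmc8 had 8.92, 12.3, 9.04 and 11.5 FPKM in KO_PD and 6.15, 7.60, 6.35 and 6.02 FPKM in WT_PD. Acy3, an aminoacylase, and Igbp1b completed the 10, at 120% and 138% of wild type. Igbp1b is a close copy of Igbp1, so its reads may be shared and its level is uncertain.

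The 10 lower genes were expressed at 75.3% to 84.2% of wild type. Ugcg, which makes glucosylceramide, had 10.4, 9.40, 8.77 and 7.04 FPKM in KO_PD and 12.2, 11.0, 12.7 and 11.1 FPKM in WT_PD, 75.9% of wild type (log2 difference -0.39, SE 0.10, limma adjusted p = 0.988). Idh1, the cytosolic NADP-dependent isocitrate dehydrogenase, had 16.9, 14.2, 14.9 and 13.9 FPKM in KO_PD and 19.1, 18.7, 21.5 and 18.3 FPKM in WT_PD, 77.2% of wild type. Rap1b, a RAS-like GTPase, had 63.1, 58.1, 51.0 and 48.6 FPKM in KO_PD and 64.5, 69.0, 77.8 and 73.8 FPKM in WT_PD, 77.5% of wild type. Rap1b was the most abundant of these 10 genes. Lats2, a kinase of the Hippo pathway, had 8.99, 9.41, 8.49 and 8.01 FPKM in KO_PD and 10.7, 10.1, 11.4 and 11.5 FPKM in WT_PD. P4ha1, a collagen prolyl hydroxylase, had 6.57, 6.21, 7.05 and 7.35 FPKM in KO_PD and 7.51, 9.36, 9.16 and 9.56 FPKM in WT_PD. Nr1d2, the circadian repressor REV-ERB beta, had 24.7, 26.1, 21.7 and 21.5 FPKM in KO_PD and 26.9, 27.2, 29.9 and 30.7 FPKM in WT_PD. By the rule that chose them, none of the 10 lower genes had a knockout library within the wild-type range. The remaining 4 were Fam3c, a secreted cytokine-like protein, Vps37a of the ESCRT-I sorting complex, Csnk1g3, a casein kinase, and Agfg1, needed for the acrosome in mouse, at 75.3%, 82.0%, 84.2% and 83.1% of wild type. All 20 genes kept their direction under every alternative tried. For the other pseudocounts and filters, and for fits that left libraries out, this follows from the rule that their libraries did not overlap.

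**Figure D5:**
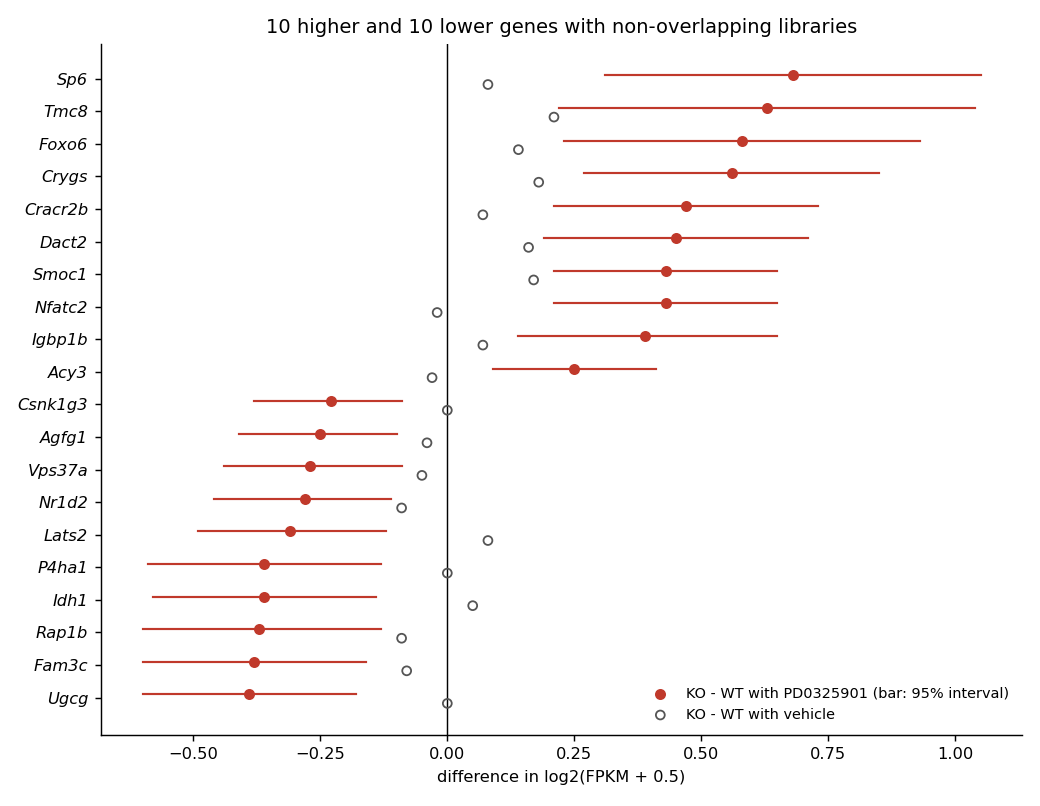
Difference in log2(FPKM + 0.5) (x axis) of the 10 higher and 10 lower genes chosen by rule, one gene a row: filled points give KO_PD minus WT_PD with 95% intervals, open circles give KO_vehicle minus WT_vehicle. The open circles gather near 0, with medians of 0.11 for the higher and -0.02 for the lower genes, against 0.46 and -0.33 for the filled points.

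The vehicle pair compared the same genotypes in other libraries, of which KO_vehicle 3 stood apart by its spermatid transcripts. This pair had 0 of 12907 genes past the adjusted threshold with limma, and 251 (1.94%) at an unadjusted p under 0.05, 1.22% higher in KO_vehicle and 0.721% lower. Non-overlapping libraries marked 1.46% of genes there, 0.806% higher and 0.659% lower, and 47.2% of all log2 differences lay above 0 and 52.8% below. Of the 112 non-overlapping genes higher under inhibitor, 86 (76.8%) were also higher under vehicle, beside 50.1% of the 5960 genes higher under inhibitor. Of the 182 lower, 114 (62.6%) were lower under vehicle, beside 55.4% of the 6947 lower genes. Across all genes 52.9% had the same direction in both pairs, and Pearson's r of the log2 differences was -0.07 over the 12907 genes, which are not independent replicates. Without KO_vehicle 3 these values were 73 of 112 (65.2%) beside 46%, 105 of 182 (57.7%) beside 52.9%, 49.7% of all genes and an r of -0.13. Of the 10 leading higher genes 8 had the same direction under vehicle, and of the 10 lower 7, and 0 of the 20 was free of overlap there. Without KO_vehicle 3 the counts were 8 of 10 and 4 of 10. For Nfatc2, Ugcg and Lats2 the vehicle differences were -0.02, 0.00 and 0.08.

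With all libraries, 5 genes were free of overlap in the same direction in both pairs, named here after their values were seen. Lss, of sterol synthesis, differed by -0.15 under inhibitor and -0.23 under vehicle. Sec11c, a subunit of the signal peptidase, differed by -0.28 and -0.29, and Apoo, a mitochondrial MICOS component, by -0.33 and -0.37, each first under inhibitor and then under vehicle. Sema4b, a semaphorin, differed by 0.22 under inhibitor and 0.24 under vehicle, and Nubpl, a complex I assembly factor, by 0.20 under inhibitor and 0.39 under vehicle. Another 2 genes were free of overlap in opposite directions. Among the lists, stem cell genes had 14 of 19 higher under vehicle with a median of 0.15, and GDNF-responsive genes 12 of 14 with a median of 0.17, so both medians lay above 0 in both pairs. Without KO_vehicle 3 they were 12 of 19 with a median of 0.10 and 11 of 14 with a median of 0.13. Immediate early genes, by contrast, had 2 of 24 higher under vehicle and a median of -0.55, and mitosis genes 2 of 20 and a median of -0.09, or -0.40 and -0.17 without that library. The spermatid median under vehicle turned with it, at 0.83 with KO_vehicle 3 and -0.59 without. Whether these list values differ between the pairs was not tested.

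The test of the difference between the pairs, the interaction of genotype and inhibitor, called 0 of 12907 genes (0%) with limma, with a smallest adjusted p of 0.999 and 1.71% of genes at an unadjusted p under 0.05. Timp1, a metalloproteinase inhibitor, was among the 5 with the smallest p. It had 2.18, 2.20, 3.65 and 2.80 FPKM in KO_PD and 1.97, 2.11, 1.64 and 1.95 FPKM in WT_PD, and 1.86, 1.78, 1.89 and 1.92 FPKM in KO_vehicle and 2.21, 2.31, 2.41 and 2.61 FPKM in WT_vehicle. Its knockout libraries thus lay above wild type under inhibitor and below it under vehicle, both without overlap (interaction 0.67, SE 0.18, limma adjusted p = 0.999; 0.68 without KO_vehicle 3). The other 4 were Mfsd4a, a transporter-like gene, at 0.98 (SE 0.21), Rfx8, of the RFX factors, at -1.82 (SE 0.46), Msl3l2 at 0.56 (SE 0.14) and Tsn, the nucleic-acid-binding protein translin, at -0.37 (SE 0.10). Etv4 had an interaction of 0.56 (SE 0.20, limma adjusted p = 0.999), from a difference of 0.41 under inhibitor and -0.15 under vehicle. Etv5 differed by 0.28 under inhibitor and 0.29 under vehicle, and the interaction of Spry4 was 0.26 (SE 0.34), or 0.08 without KO_vehicle 3.

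Genes beside Spry4 on chromosome 18 lay on both sides of wild type. Within 2 Mb of it, 28 genes were tested, of which 13 were higher and 15 lower in KO_PD, with a median of -0.02 and a range of -0.61 for Cd14 to 0.33 for Fgf1. The smallest unadjusted p was 0.0692, for Ankhd1, which was also the only neighbour without overlap, at 16.8, 17.0, 15.4 and 12.8 FPKM in KO_PD and 18.1, 17.2, 17.3 and 17.6 FPKM in WT_PD. Of the 28, 16 had the same direction under vehicle.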

How the data were processed

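The libraries were made from polyA RNA of sorted cells with a stranded kit, per the labels' protocols. The values are FPKM per gene, computed and deposited by the authors. FastQC, STAR 2.7.10a, edgeR 4.0.14 and the builds mm10 and GRCm39 appear, without a role, per the submitters' processing notes. Neither the counter nor the gene lengths are stated in the labels. Of 16383 symbols, 15771 (96.3%) matched GENCODE M21 (GRCm38), used for identifiers, exon lengths and positions. Library divisors of 23366500 to 36582600 were recovered as the sizes that made FPKM times exon length whole; with them, 92.79% to 94.32% of values under 100 reads came out whole to within 0.1. Reads in matched genes came to 86.75% to 112.55% of the divisor, so it may hold a scaling factor and is not taken as depth alone.

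Group means were estimated from all 16 libraries on log2(FPKM + 0.5) with limma 3.58.1 in R 4.3.3 (12 residual degrees of freedom, variance trend), and p-values were adjusted by Benjamini-Hochberg over 12907 genes, with 0.05 as the threshold. This scale understates changes of genes near 1 FPKM. Spry4 was also tested by a two-sided exact permutation test. The model was checked on simulated data. Named genes were a set of 17 pathway and stage genes, the 10 higher and 10 lower non-overlapping genes with the smallest p (mean of at least 2 FPKM, without predicted genes and pseudogenes), the 5 smallest interaction p, and up to 4 members per list with the largest moderated statistic; others are said to be chosen after their values were seen, as are the further members of the stem cell and GDNF-responsive lists. The members, lists and rules were chosen with earlier results of these data known. Lists are described by counts and medians, with no test. Alternatives were the pseudocount, the filter, scaling, limma-voom on the recovered reads, the libraries in the fit, replicate and library-set terms, and marker levels as terms. Erythrocyte markers had 2 of 8 genes listed and 0 tested.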

Additional observations from a re-analysis of the deposited data

Results flagged for a closer look

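Of 162 sets of 4 replicate values checked, 5 held a value whose gap to its nearest neighbour passed Dixon's critical share of the set's range, where chance gives about 1 in 20. Kit in WT_PD 4 was 4.5 FPKM, the top of a set that began at 1.97 FPKM. Msl3l2 in KO_PD 1 was 6.96 FPKM, the bottom of a set that reached 7.63 FPKM. The mean log2 level of mitosis genes in WT_PD 3 was 4.11, in a set that reached 4.51, and that of ribosome biogenesis genes in the same library was 4.82, in a set that reached 5.14. WT_PD 3 was also the library highest in Acta2, at 5095 FPKM; the part of this in the 2 list means was not tested. The mean of interferon genes in KO_PD 2 was 2.44, in a set that reached 2.81.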

How the results depend on the processing

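Under all 24 alternatives 0 genes passed the adjusted threshold for genotype under inhibitor, and 0 for the interaction where it was fitted; the smallest adjusted p for genotype was 0.108. Replicate numbers did not pair the samples: deviations from the group means correlated at -0.02, 0.39, -0.14 and 0.57 for numbers 1 to 4. With the replicate block 0 genes were called, and 825 had an unadjusted p under 0.05 against 605 without it. Spry4 then had an exact permutation p of 0.125, the smallest that the 16 arrangements of that block allow. Genes at an unadjusted p under 0.05 numbered 375 with the 8 inhibitor libraries alone, 960 with the set as a term, 1390 in set 2, 2266 with the peritubular mean, 2331 with the spermatid mean added, 2074 without WT_PD 1 and 2, and 262 to 944 with 1 replicate left out. Non-overlapping genes numbered 112 higher and 182 lower; a filter of 5 FPKM left 62 higher, median scaling 100 lower and quantile normalization 116 lower. With fewer libraries to separate, set 1 alone gave 2971 higher and 2344 lower, set 2 alone 2352 and 3409, and the fit without WT_PD 1 and 2 gave 1158 and 2013. Leaving out 1 replicate gave 139 to 481 higher and 229 to 508 lower. Spry4 ranged from -0.96 to -0.57 with 1 replicate left out, and was past 0.05 without KO_PD 4, where removing the overlapping library gave an exact p of 0.0286, the smallest possible. Single genes turned in sign as follows, and the cause was not tested. In set 1: Spred1 0.02, Egr1 -0.16, Nanos2 -0.04, Neurog3 -0.20, Kit 0.15 and Zbtb16 -0.05. In set 2: Spry1 0.09 and Cdkn1a -0.64. With the peritubular mean as a term Cdkn1a was -0.29, and with the spermatid mean added -0.27. Without WT_PD 1 and 2: Gfra1 0.01 and Cdkn1a -0.95. With 1 replicate left out, Spry1 ran from -0.18 to 0.19, Cdkn1a from -0.35 to 0.40, Egr1 from -0.03 to 0.14, Kit from -0.22 to 0.12 and Ccnd1 from -0.26 to 0.08. The fits with spermatid means, without KO_vehicle 3 and without WT_PD 1 and 2 were chosen after seeing the data. The median 95% interval of 0.31 to either side limits what 4 libraries a group can show.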

Other observations

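Among all tested genes, 24 had a log2 difference beyond 1 under inhibitor, 15 higher and 9 lower in KO_PD, and those below were named after their values were seen. Cnn1, Sncg, Slc22a3, P2rx1 and Tnnt3, on the higher side, were all lowest in WT_PD 2 and next lowest in WT_PD 1, the libraries lowest in Acta2. Slc22a3, an organic cation transporter, had 63.3, 36.9, 36.6 and 70 FPKM in KO_PD and 13.4, 4.97, 75.1 and 54.4 FPKM in WT_PD. On the lower side, the ATP-sensitive potassium channel pair Abcc9 and Kcnj8 and the basement membrane collagen Col15a1 differed by -1.27, -1.24 and -1.27. Abcc9 had 29.2, 3.46, 14.2 and 12.5 FPKM in KO_PD and 35.3, 72.1, 21.8 and 12.6 FPKM in WT_PD, lowest in KO_PD 2 and highest in WT_PD 2. Under vehicle the 3 genes differed by 0.50, 0.45 and 0.22, to the other side, or by 0.91, 0.76 and 0.33 without KO_vehicle 3. Apold1, an early response gene of endothelium, was the only gene beyond 1 without overlap, at 7.52, 5.38, 10.6 and 11.6 FPKM in KO_PD and 11.9, 16.6, 21.0 and 29.8 FPKM in WT_PD (-1.11, SE 0.45), and it differed by -0.60 under vehicle, or by -0.35 without KO_vehicle 3.

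The largest difference of all belonged to the predicted gene Gm15772, at 106, 140, 131 and 164 FPKM in KO_PD and 3.18, 1.98, 0.991 and 233 FPKM in WT_PD (4.16, SE 1.54, adjusted p = 0.988). Under vehicle it had 232, 1.57, 1.95 and 1.91 FPKM in KO_vehicle and 130, 256, 139 and 121 FPKM in WT_vehicle, a difference of -4.40. Its libraries took either about 1 to 3 FPKM or over 100 FPKM in both genotypes, with none between.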
